A study of Mus musculus with 3 samples.

Results

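The immunoproteasome is a form of the proteasome, the protease complex that breaks down most cytosolic proteins, and it was followed here through 8 genes of 31053 in the RNA table. All 8 were found by symbol. Psmb8, Psmb9 and Psmb10 encode its catalytic subunits, and Psme1 and Psme2 encode the alpha and beta subunits of the PA28 activator. Psmb5, Psmb6 and Psmb7 encode the constitutive catalytic subunits, whose places Psmb8, Psmb9 and Psmb10 take in this order. The gene sets were chosen by name, and their summed UMI counts were set against each other in each deposited cell cluster and brain. A UMI (unique molecular identifier) marks 1 captured RNA molecule.

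Interferon, above all interferon gamma, induces the immunoproteasome subunits and PA28, and cells of blood origin hold them without such a signal. The immunoproteasome cuts proteins into peptides that suit the groove of MHC class I, and in the healthy brain it is known mainly from microglia. The PA28 subunits bind the ends of the proteasome barrel and open it.

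The cells came from brains of female C57BL/6 mice aged 2 to 3 months. Brains with metastases had received E0771 cells, a mouse mammary carcinoma line, through the carotid artery about 2 weeks earlier, and naive brains came from mice of the same strain, sex and age range without metastases. No allele or drug is named for either condition, and the labels give the material as 1 brain hemisphere. Suspensions were made with a papain-based kit and enriched for immune cells on a Percoll gradient, so that cell shares are not those of the tissue. Before the cells were mixed and loaded in 1 droplet run, every brain received a different hashing antibody, which the files resolve into 2 brains with metastases (metastasis 1 and 2) and 2 naive brains (naive 1 and 2). The design text speaks of 6 samples and the files used here hold 4. Separate days of preparation are not stated for the brains, so the error behind each p-value is that among 4 suspensions and may be technical.

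Metastasis 1 and metastasis 2 gave 5360 and 6174 cells with 45724262 and 57620835 UMIs, against 572 and 315 cells with 1691221 and 694223 UMIs in naive 1 and naive 2. No cell barcode occurred in more than 1 brain, and every cell carried a single-brain call. Doublets within a brain were not removed. The brains shared 1 suspension before loading, so free RNA was common to all droplets. The 13 deposited clusters carry numbers only. From marker lists, cluster 2 was monocyte/macrophage-like (11 of 11 markers), cluster 6 endothelial-like (8 of 8), clusters 7 and 9 choroid plexus-like (7 of 8 each) and cluster 11 mural-like (6 of 9). Cluster 8 held markers of T, NK, dendritic and monocytic cells, cluster 10 was led by Lyz2, Plac8 and Saa3, and cluster 12 held microglia and neutrophil genes. Clusters 0, 1, 3 and 4, the large clusters, reached no marker list, took between 98.7% and 99.1% of their cells from brains with metastases and held Krt8, a keratin, at 463 to 673 CPM (UMIs of a gene scaled to the same total in each cluster and brain), where all 8 carcinoma markers, Krt8 included, summed to 391 to 751 CPM in the brains with metastases. Cluster 3 was led by the interferon-stimulated genes Usp18, Isg15 and Ifit1, and cluster 5 by mitochondrial genes.

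In the mouse genome (GRCm38.p6, RefSeq) Psmb8 lies on chromosome 17 at 34198195 to 34201454 and Psmb9 at 34182030 to 34187330, inside the MHC, beside the peptide transporter genes Tap1 (34187556 to 34197225) and Tap2 (34204479 to 34216321). Psmb9 and Tap1 start 225 bases apart and run in opposite directions, and 969 bases separate the end of Tap1 from the start of Psmb8. The remaining members lie outside that region, Psmb10 on chromosome 8, Psme1 and Psme2 with 5912 bases between them on chromosome 14, Psmb5 also on chromosome 14, Psmb6 on chromosome 11 and Psmb7 on chromosome 2. Psme2b, a near copy of Psme2 on chromosome 11, could take reads of Psme2, and it had 0 to 36.4 CPM over the clusters and brains with at least 20 cells.

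RefSeq promoter windows, from 250 bases before to 50 bases after the annotated start, were at hand for 7 of the 8 members (not Psmb7). They were searched on both strands for letters of the interferon-stimulated response element (GAAA and GAAA, 2 bases apart, in 3.49% of 27025 promoters of the same length), the gamma-activated site (TTCNNNGAA, 8.47%), the antioxidant response element (TGANNNNGC, 41.4%), an NF-kB site (GGG and TTNCC, 2 bases apart, 4.71%) and a CRE/ATF site (TGACGTCA, 1.88%). None of these letters overlapped another match in the 4 windows below. Among the 7 members with a window only Psmb8 held the gamma-activated letters and only Psme1 the interferon-stimulated ones, and none of the 7 held the NF-kB or CRE/ATF letters. The antioxidant letters, common in all promoters, were in the windows of Psmb8, Psmb9, Psme2, Psmb5 and Psmb6. The 4 windows are shown 5′ to 3′ on the gene's strand because the results below turn on Psmb8 and its constitutive counterpart Psmb5, on Psmb9 with its divergent neighbour Tap1, and on PA28. Capitals mark the gamma-activated letters in Psmb8 and the interferon-stimulated letters in Psme1. A match describes the letters and is not a tested site.
Psmb8 (chr17:34197945-34198244, + strand): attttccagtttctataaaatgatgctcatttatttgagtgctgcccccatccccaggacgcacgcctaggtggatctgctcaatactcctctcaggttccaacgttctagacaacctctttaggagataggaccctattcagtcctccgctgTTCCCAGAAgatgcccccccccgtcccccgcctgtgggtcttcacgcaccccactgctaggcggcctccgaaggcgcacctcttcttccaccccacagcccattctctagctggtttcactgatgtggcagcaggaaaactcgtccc
Psmb9 (chr17:34187281-34187580, - strand): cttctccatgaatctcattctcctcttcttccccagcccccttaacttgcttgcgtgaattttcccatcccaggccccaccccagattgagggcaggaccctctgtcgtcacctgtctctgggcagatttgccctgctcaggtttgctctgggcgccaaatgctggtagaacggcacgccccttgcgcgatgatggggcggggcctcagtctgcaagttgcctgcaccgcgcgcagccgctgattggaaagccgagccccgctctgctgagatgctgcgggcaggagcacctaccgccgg
Psme1 (chr14:55578244-55578543, + strand): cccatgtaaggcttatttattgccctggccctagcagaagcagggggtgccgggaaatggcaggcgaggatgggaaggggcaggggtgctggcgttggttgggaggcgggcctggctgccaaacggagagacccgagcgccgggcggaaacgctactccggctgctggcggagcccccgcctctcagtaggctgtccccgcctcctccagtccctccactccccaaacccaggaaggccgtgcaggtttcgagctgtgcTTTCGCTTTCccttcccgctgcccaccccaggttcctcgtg
Psmb5 (chr14:54617946-54618245, - strand): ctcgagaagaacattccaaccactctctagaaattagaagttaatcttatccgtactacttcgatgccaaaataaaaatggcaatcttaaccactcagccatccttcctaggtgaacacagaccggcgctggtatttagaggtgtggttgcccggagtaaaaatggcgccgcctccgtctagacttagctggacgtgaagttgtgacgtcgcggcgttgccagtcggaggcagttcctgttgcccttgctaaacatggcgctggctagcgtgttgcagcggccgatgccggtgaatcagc

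The first question was where the immunoproteasome outweighed the constitutive subunits. Over all cells of the brains with metastases, immunoproteasome and activator UMIs exceeded constitutive UMIs in the immune clusters 2, 8 and 12. Constitutive UMIs were then the larger sum in the other clusters with at least 20 cells. In the monocyte/macrophage-like cluster 2 the ratio was 2.25 in metastasis 1 and 2.20 in metastasis 2 (log2 1.15 ± 0.02, SD, n = 2 brains). Cluster 8 followed with 1.86 and 2.11 (log2 0.99 ± 0.13), and cluster 12 had 1.78 in metastasis 1, where it held 26 cells. The counting interval of cluster 12 in metastasis 1 covered the values of both clusters above it. The 15 cells of cluster 12 in metastasis 2 had 1.19. The order of clusters 2 and 8 turned with the cells used. With every cell thinned to 1000 UMIs the log2 ratio was 1.74 and 1.68 in cluster 8 and 1.12 and 1.19 in cluster 2. A set of 30 genes was chosen after the data were seen, as those highest in the large clusters over cluster 2 in the brains with metastases. Only cluster 2 was the comparator, so that other cell types can hold these genes themselves. They include Krt8, Rhox5, Serpinh1, Cald1 and Col6a1. In cluster 8 their summed share was 62.0% and 50.2% of its level in the large clusters. In cluster 2 the share was 18.4% and 19.98%, low through the choice of genes. In the cells of both clusters where this share was at most 40%, the log2 ratio was 1.83 and 1.73 in cluster 8 and 1.29 and 1.32 in cluster 2. That limit kept 147 and 197 cells of cluster 8 and 679 and 1006 of cluster 2. The endothelial-like cluster 6 was also above 0 in such cells, at log2 0.54 (71 cells) and 0.22 (52 cells). Its thinned cells had log2 -0.24 and 0.10. More immunoproteasome than constitutive UMIs was thus not particular to immune clusters in low-share cells. UMIs were counted per molecule at the 3′ end and were not divided by gene length, and genes differ in capture, so the ratio compares clusters and brains and is no molar proportion. The clusters were made from the same RNA, so differences between them are descriptions with no test.

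The next clusters down were cluster 3, with 0.797 in metastasis 1 and 0.826 in metastasis 2, and cluster 10, with 0.810 and 0.762, whose ranges overlapped. The endothelial-like cluster 6 had 0.709 and 0.756 and cluster 1 had 0.618 and 0.709. Choroid plexus-like cluster 9 spread from 0.584 to 0.713 and overlapped both. Clusters 7, 5, 11 and 4 lay between 0.518 and 0.600 and each overlapped at least 1 other. Cluster 0 was at the foot of the order with 0.484 and 0.512, below the values of these 4. Within the large clusters the order was 3, 1, 4 and 0 in both brains, and metastasis 2 was above metastasis 1 in all 4.

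Naive brains had at least 20 cells in few clusters. In cluster 12 the ratio was 1.5 in naive 1 (102 against 68 UMIs) and 1.49 in naive 2 (61 against 41), so this cluster held more immunoproteasome than constitutive UMIs in naive brains too, although the counting interval of naive 2 (49.6% to 69.4% immunoproteasome UMIs) included equal sums. The single value of metastasis 1 was above both, within their counting intervals. In cluster 12, naive sums were rich in microglia markers (14199 and 13154 CPM, against 6923 CPM in metastasis 1) and neutrophil markers were at 20891 CPM in naive 2 alone, against 575 CPM in naive 1 and 53.1 CPM in metastasis 1, and their part in the ratio was not tested.

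**Figure D1:**
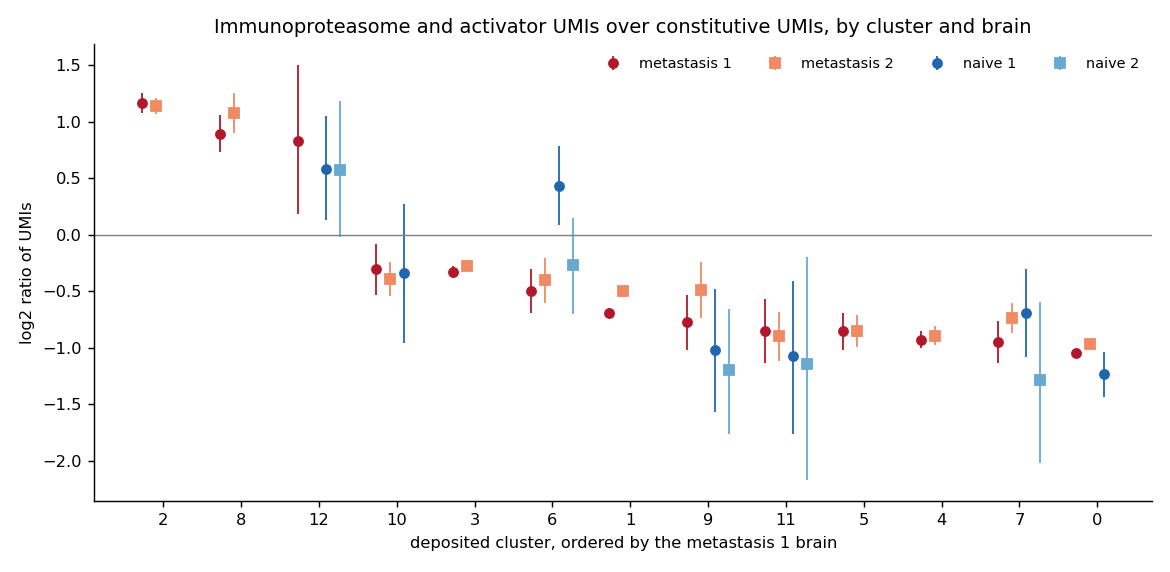
Log2 ratio of immunoproteasome and activator UMIs (Psmb8, Psmb9, Psmb10, Psme1, Psme2) to constitutive UMIs (Psmb5, Psmb6, Psmb7) on the vertical axis, by deposited cluster and brain, for brains with at least 20 cells in the cluster. Bars are exact 95% binomial intervals of the UMI share and cover counting error only. Clusters 2, 8 and 12 lie above 0 and, except for naive 1 in cluster 6, the other points lie below it.

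Over all cells of a brain the ratio was 0.614 and 0.692 in metastasis 1 and metastasis 2, against 0.643 and 0.718 in naive 1 and naive 2, and the conditions overlapped. The large clusters took 68.9% and 66.1% of cells in the brains with metastases, against 12.1% and 6.03% in naive brains. Outside them the ratio was 1.20 and 1.21 with metastases, against 0.903 and 0.740 in naive brains, and every brain with metastases was above both naive brains. Cluster 2, with 718 and 1063 cells with metastases against 10 and 5 in naive brains, belongs to this remainder, and its part in these values was not tested.

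The CD45 antibody tag, a surface mark of cells of blood origin that is read apart from the RNA, gave a further split of the cells. In cells with 1 to 2 CD45 tags the ratio was 0.547 in metastasis 1 and 0.628 in metastasis 2, and cells with 3 to 9 tags were at 0.543 and 0.611. Cells with 10 to 29 tags had 1.46 and 0.940, those with 30 to 99 tags had 1.52 and 1.21, and those with 100 or more had 2.01 and 1.92. Both brains had their highest value in the last bin. Cells with no tag, at 0.592 and 0.682, were slightly above the next bin. The bins pool all clusters, so that they differ in which clusters they hold. Within cluster 10 of metastasis 2 the ratio was 0.844, 0.664 and 0.826 in cells with 10 to 29, 30 to 99 and 100 or more tags, with no rise over the bins.

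**Figure D2:**
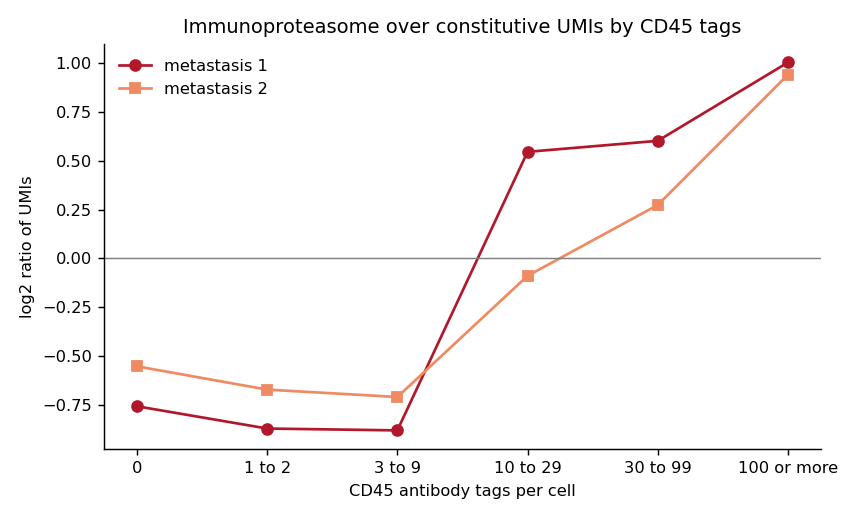
Log2 ratio of immunoproteasome and activator UMIs to constitutive UMIs on the vertical axis against CD45 antibody tags per cell, all clusters of each brain with metastases. Both lines lie below 0 up to 9 tags and reach log2 1.00 and 0.94 at 100 or more tags.

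Psmb8, which encodes the chymotrypsin-like immunoproteasome subunit, reached 781 CPM in metastasis 1 and 779 CPM in metastasis 2 in cluster 2, 684 and 680 CPM in cluster 8 and 637 CPM in cluster 12 of metastasis 1. In cluster 3 it was at 331 and 367 CPM and in cluster 10 at 299 and 294 CPM. The other clusters of these brains lay between 52.3 and 264 CPM, with choroid plexus-like cluster 9 lowest at 52.3 and 82.6 CPM. Psmb8 exceeded Psmb5, the subunit it replaces, in the immune clusters by 2.82-fold and 3.24-fold in cluster 2 and by 2.50-fold and 2.51-fold in cluster 8. In cluster 0 the same ratio was 0.406 and 0.512.

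Psmb9, which takes the place of the caspase-like subunit Psmb6, was at 259 and 221 CPM in cluster 2 and 230 CPM in both brains in cluster 8, against 17.6 and 26.6 CPM in cluster 4 and 19.8 and 34.0 CPM in cluster 0. Psmb9 stayed below Psmb6 in every cluster and brain with at least 20 cells, with a ratio of 0.512 and 0.398 in cluster 2. In the large clusters Psmb9 was higher in metastasis 2 than in metastasis 1 in 4 of 4 clusters, for instance at 49.98 CPM in metastasis 2 against 24.2 CPM in metastasis 1 in cluster 1, a difference between single brains that has no test.

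Psmb10, which takes the place of the trypsin-like subunit Psmb7, was at 226 and 236 CPM in cluster 2, 147 and 167 CPM in cluster 8 and 55.3 and 55.2 CPM in cluster 4. Cluster 2 was the cluster where Psmb10 exceeded Psmb7 in both brains with metastases, with ratios of 1.12 and 1.20. In cluster 8 they were 0.50 and 0.697.

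The activator genes covered a narrower range than the catalytic ones. Psme1 was at 349 and 389 CPM in cluster 2 and 340 and 397 CPM in cluster 8, and between 100 and 209 CPM in the other clusters of these brains apart from cluster 12, at 292 CPM in metastasis 1. Psme2 was at 599 and 556 CPM in cluster 2 and 556 and 515 CPM in cluster 8, and cluster 3 followed with 417 and 396 CPM. In cluster 12 of metastasis 1, which matched clusters 2 and 8 in Psmb8, Psme2 was at 265 CPM, near the large clusters.

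Constitutive subunits varied less across clusters and were lower in clusters 2 and 8 than in the large clusters 0 and 3. The sum of Psmb5, Psmb6 and Psmb7 was 988 ± 5.31 CPM in cluster 2 and 996 ± 77.8 CPM in cluster 8, and it was 1408 ± 3.63 CPM in cluster 3 and 1327 ± 19.6 CPM in cluster 0 (SD, n = 2 brains each). The sum of the immunoproteasome and activator genes was 2197 ± 23.1 CPM in cluster 2, 1143 ± 31.0 CPM in cluster 3 and 661 ± 35.8 CPM in cluster 0. Cluster 3 therefore differed from cluster 0 in immunoproteasome level far more than in constitutive level. Cluster 9 had the lowest sums of both kinds, 418 ± 86.6 and 641 ± 43.8 CPM, in cells where choroid plexus markers took 363140 and 327619 CPM.

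**Figure D3:**
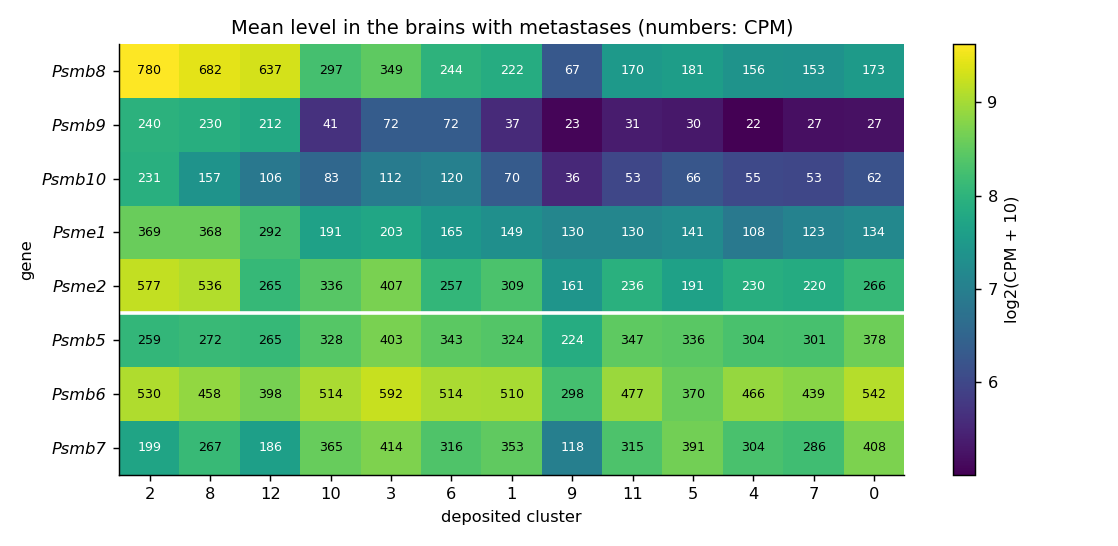
Mean level of each member in the 13 clusters of the brains with metastases, coloured as log2(CPM + 10) with the CPM printed in each square. Each square is the mean of 2 brains, except cluster 12, which is metastasis 1 alone. Genes above the white line are immunoproteasome and activator genes, brightest in clusters 2 and 8, and those below it are constitutive subunits, which change less across clusters.

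Over the 12 clusters with at least 20 cells in both brains with metastases, the immunoproteasome and activator genes went together. Pearson's r on log2(CPM + 10) between pairs of them was between 0.888 (Psmb9 with Psme2) and 0.971 (Psmb9 with Psme1). Psmb5 and Psmb7 correlated with each other at 0.921 and with the summed immunoproteasome level at -0.07 and 0.05, while Psmb6 was at 0.54. These are descriptions over clusters that share a library and differ in depth. The genes whose pattern was most like the summed immunoproteasome level, among 2779 genes at 50 CPM or more, were Shisa5 (r = 0.959), B2m (0.958), H2-T22 (0.956), Ifitm2 (0.95), Cd47 (0.947), Ccl5 (0.943), Mrps18c (0.942), Tmem219 (0.940), Ccdc12 (0.932) and Rpp21 (0.928). By Spearman's rho 5 of these 10 were again among the first 10.

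In clusters 1, 3 and 4, but not in cluster 0, cells in the highest bin of interferon-stimulated UMIs had a higher ratio than cells with none in both brains with metastases. The 9 genes counted (Usp18, Isg15, Ifit1, Zbp1, Ifi44, Oas1a, Ifi35, Oasl2 and Rsad2) were chosen after cluster 3's leading genes were seen, and each cell was thinned to 1000 UMIs first. In cluster 1 the ratio in the bins with 0, 1 and 2 or more UMIs was 0.613, 0.672 and 0.906 in metastasis 1 and 0.748, 0.693 and 1.04 in metastasis 2, where the middle bin was the lowest. Cluster 3 had 0.725, 0.817 and 0.929 in metastasis 1 and 0.779, 1.01 and 1.01 in metastasis 2. Cluster 4 had 0.590 and 0.539 without such UMIs and 0.742 and 0.915 with 1, its highest bin with at least 20 cells. In cluster 0 metastasis 1 had 0.481, 0.534 and 0.700 in the 3 bins, while metastasis 2 had 0.528, 0.689 and 0.519. The last bin of cluster 0 held 27 and 56 cells. Counting intervals of the first and last bins overlapped in both brains in clusters 0, 3 and 4. In cluster 1 they were apart in metastasis 1 and just overlapped in metastasis 2. Cluster 0 is therefore not shown to differ from the others.

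**Figure D4:**
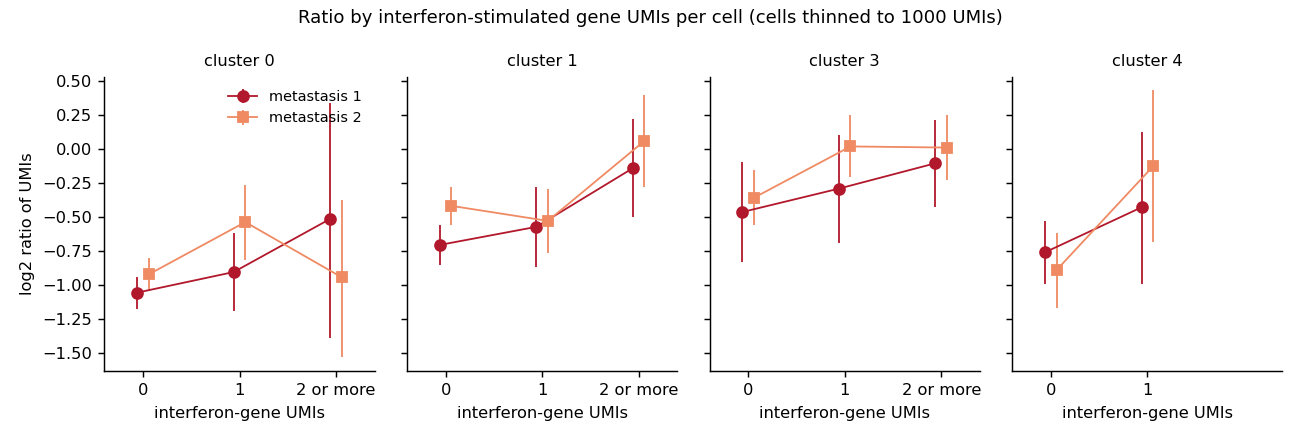
Log2 ratio of immunoproteasome and activator UMIs to constitutive UMIs on the vertical axis against the UMIs of 9 interferon-stimulated genes per cell, in the large clusters of the brains with metastases, each cell thinned to 1000 UMIs. Bars are exact 95% binomial intervals. In clusters 1, 3 and 4 the last bin is above the first in both brains, and in cluster 0 only in metastasis 1.

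The second question was whether metastases changed the members within a cell class. Clusters 6, 7, 9 and 11 had at least 20 cells in all 4 brains, and their UMIs were summed per brain and compared with edgeR's quasi-likelihood test, Benjamini-Hochberg adjusted over all genes tested in the cluster at 0.05. Psmb8 was called higher with metastases in both choroid plexus-like clusters, where 14.2% of genes in cluster 7 and 3.83% in cluster 9 were called higher. In cluster 9 Psmb8 passed the low-count filter through the brains with metastases alone and could not be called lower. Psme2 and Psmb6 were called higher in cluster 7 as well, and no member was called lower in any of the 4 clusters. In cluster 7 the sums compared cells that differed in kind, with fewer choroid plexus marker UMIs with metastases. Among its cells with at most 40% of the large-cluster share, 0 of 5 members tested were called, where 3 of 1865 genes were called higher and 0 lower. Psmb8 was below the low-count filter in such cells of clusters 7 and 9 and was not tested. With so few genes called, cluster 7 does not show whether members rose within choroid plexus cells. Levels below are CPM after TMM scaling.

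In cluster 9 Psmb8 had 32 and 39 UMIs in the brains with metastases, against 1 and 0 in the naive brains. This was 56.0 CPM in metastasis 1 and 85.8 CPM in metastasis 2, against 5.64 and 0 CPM in naive 1 and naive 2. The conditions did not overlap, and median depth per cell was alike, at 5371 and 5338 UMIs with metastases against 4575 and 5576 UMIs in naive brains. The pooled CPM ratio, before TMM scaling, was 26.0 (exact 95% counting interval 4.52 to 1042), and edgeR gave a log2 fold change of 4.46 (SE 0.81, adjusted p = 0.000517), a fitted value that depends on the prior count because the naive sum was 1. Of 6 members tested this was the 1 called higher, where 3.83% of all genes tested were. Psmb8 passed the low-count filter through the brains with metastases alone, so that it could be called higher but not lower.

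The Psmb8 UMIs were spread over cells. In metastasis 1, 19 of 97 cells held at least 1 (19.6%, exact 95% interval 12.2% to 28.9%), and in metastasis 2 it was 19 of 72 cells (26.4%, 16.7% to 38.1%), with at most 5 UMIs in any cell. In naive 1 it was 1 of 40 cells (2.50%, exact 95% interval 0.06% to 13.2%). In naive 2 it was 0 of 36 (exact 95% interval 0% to 9.74%), where the floor of 3 counts allows a share of up to 8.33%.

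Without either brain with metastases the call was lost, at log2 4.72 (adjusted p = 0.110) without metastasis 1 and log2 4.16 (adjusted p = 0.157) without metastasis 2, and it held without naive 1 (log2 7.81, adjusted p = 0.00123) and without naive 2 (log2 3.53, adjusted p = 0.00997). DESeq2 gave log2 4.63 and no adjusted p. Genes of the large clusters also moved in cluster 9. Their summed share, over the same 30 genes, was 27.4% and 34.0% of its level in those clusters with metastases, against 19.7% and 21.3% in naive brains, and 24 of the 30 were higher in both brains with metastases. Choroid plexus markers summed to 363140 and 327619 CPM, against 398418 and 415519 CPM, and monocyte and macrophage markers to 177 and 84.7 CPM, against 82.3 and 98.7 CPM.

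Cells in which these 30 genes took at most 40% of their share in the large clusters numbered 87 and 58, against 38 and 34 in naive brains. They held 13 and 12 of the Psmb8 UMIs, against 1 and 0, a ratio of 11.9 (1.94 to 487). At these counts Psmb8 was below the low-count filter and was not tested. Cells of cluster 9 with a Psmb8 UMI had a median large-cluster share of 33.6% in metastasis 1 and 46.0% in metastasis 2, and cells without one had 16.9% and 17.4%.

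No other member was called in cluster 9. Psme1 had 128 and 145 CPM with metastases, against 90.2 and 79.4 CPM in naive brains (log2 0.68, SE 0.30, adjusted p = 0.234), and Psme2 had 163 and 176 CPM, against 113 and 119 CPM (log2 0.54, SE 0.28, adjusted p = 0.317). Neither overlapped between conditions. Among all genes tested in this cluster 47.7% did not overlap between conditions.

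Psmb9 and Psmb10 had too few UMIs to be tested there. Psmb9 had 8 and 16 UMIs with metastases, against 2 and 2 in naive brains, and Psmb10 had 12 and 25, against 5 and 4, with the CPM of metastasis 1 below that of naive 1. Of the constitutive subunits, Psmb5 was at log2 0.29, Psmb6 at 0.39 and Psmb7 at 0.56, with adjusted p from 0.408 to 0.638. The ratio of the 2 sets was 0.584 and 0.713 with metastases, against 0.494 and 0.436 in naive brains, so that both brains with metastases were above both naive brains.

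Of 11 genes of class I peptide loading, 7 were tested in cluster 9 and 3 rose, where 3.83% of all genes tested did. They were B2m, the light chain of MHC class I (log2 1.56, SE 0.26, adjusted p = 0.000217), and the heavy chains H2-K1 (log2 2.18, SE 0.47, adjusted p = 0.00312) and H2-D1 (log2 2.31, SE 0.35, adjusted p = 5.3e-05). In the cells with at most 40% of the large-cluster share edgeR called all 3 again, at log2 1.37, 1.65 and 1.93. In that fit 20 of 2582 genes were called higher. Without metastasis 1 none of the 3 was called (adjusted p = 0.0766 for B2m and H2-K1 and 0.0637 for H2-D1), and without metastasis 2 H2-K1 was not (log2 1.06, adjusted p = 0.234). Tap1, the neighbour of Psmb9, had 4 and 6 UMIs with metastases, against 3 and 1, and was not tested.

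Of 17 interferon signalling genes only Irf7, an interferon-induced transcription factor, had enough UMIs to be tested. It had 45 and 91 UMIs with metastases, against 4 and 2 in naive brains, and passed the filter through the former alone. By edgeR Irf7 was called higher (log2 2.98, SE 0.54, adjusted p = 0.000517), where 3.83% of all genes tested were. With that filter it could not be called lower, so the call is no result about the list. In the low-share cells it had 40 and 60 UMIs, against 4 and 2, and was called by edgeR (log2 3.02, adjusted p = 1.16e-05), where 20 of 2582 genes were called higher. It lost its call without metastasis 1 (adjusted p = 0.0637) and without metastasis 2 (adjusted p = 0.0532). By edgeR 0 of 11 genes of the shared 20S core and 0 of 20 tested genes of the 19S regulatory particle, the cap that feeds ubiquitin-marked proteins into the barrel, were called, with 1 of each at an unadjusted p under 0.05. The median log2 fold change was 0.27 for the 20S core and 0.17 for the 19S particle, beside 0.00 for all genes tested.

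In cluster 7, the other choroid plexus-like cluster, Psmb8, Psme2 and Psmb6 were called higher in sums whose cells differed in kind between conditions. Psmb8 had 118 and 176 CPM in the brains with metastases, against 57.0 and 58.8 CPM in the naive brains (log2 1.36, SE 0.35, adjusted p = 0.0157). Psme2 had 191 and 233 CPM, against 130 and 67.2 CPM (log2 1.00, SE 0.31, adjusted p = 0.0332). Psmb6, a constitutive subunit, had 382 and 460 CPM, against 244 and 202 CPM (log2 0.90, SE 0.24, adjusted p = 0.0172). Each of these genes was higher in both brains with metastases than in both naive brains.

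These were 3 of 7 members tested, where 14.2% of all genes tested were called higher and 71.7% did not overlap between conditions. Psmb10, Psmb5 and Psmb7 were at log2 1.06, 0.76 and 0.67 with adjusted p of 0.0921, 0.0565 and 0.0567, also without overlap. Psme1 overlapped, with 105 and 132 CPM, against 163 and 58.8 CPM (log2 -0.04, SE 0.36, adjusted p = 0.943). Psmb9 had 12 and 42 UMIs, against 1 and 0, and was below the filter, with a pooled ratio of 10.1 after TMM scaling. The ratio of the 2 sets was 0.518 and 0.600 with metastases, against 0.620 and 0.410, and overlapped.

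The 30 large-cluster genes moved strongly in cluster 7. Their share was 71.2% and 81.7% of its level in the large clusters with metastases, against 27.7% and 25.6% in naive brains, all 30 were higher in both brains with metastases, and choroid plexus markers were at 127655 and 76090 CPM, against 282790 and 266410 CPM. In the cells with at most 40% of that share, Psmb8 had 9 and 7 UMIs with metastases, against 7 and 5. At these counts it was below the low-count filter and was not tested. Of the 5 members tested there 0 were called, where 3 of 1865 genes were called higher and 0 lower. DESeq2 called 0 of 7, where 309 of 4229 genes were called higher, with Psmb8 at log2 1.33 (adjusted p = 0.0665). Psmb8 was called without any single brain (log2 1.10 to 1.66). Psme2 lost its call without metastasis 2 (log2 0.91, adjusted p = 0.0624) and without naive 2 (log2 0.70, adjusted p = 0.17), and Psmb6 without naive 2 (log2 0.78, adjusted p = 0.0826).

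Among the other proteasome genes of cluster 7, 6 of 11 of the shared 20S core rose by edgeR, where 14.2% of all genes tested did, led by Psma7 (log2 1.33, SE 0.28, adjusted p = 0.00702), Psma5 (1.16), Psmb3 (0.99) and Psmb1 (0.80), and none fell. Of 21 genes of the 19S particle 6 rose, led by Psmd9 (log2 1.37), Psmd7 (1.23), Psmd1 (1.19) and Psmd3 (1.13). The medians were 0.66 and 0.78, beside 0.90 for the members and 0.11 for all genes tested. Of 5 assembly factors, which build the barrel, Psmg3 rose (log2 1.26), and of 3 other activators and inhibitors none was called. H2-D1 (1.28) and H2-K1 (1.07) rose, Canx, a chaperone of class I folding, fell by 0.96 on the log2 scale, and Nfe2l1, which encodes the transcription factor that raises proteasome genes when proteasomes are short, fell by 1.01. In the low-share cells H2-D1 had 29 and 32 UMIs, against 43 and 24, a CPM ratio of 1.07 (0.744 to 1.54), and H2-K1 had 21 and 28, against 14 and 7, a ratio of 2.74 (1.62 to 4.82).

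With clusters 7 and 9 summed, a choice made after the data were seen, 4 of 8 members rose, where 12.9% of genes did. They were Psmb8 (log2 1.94, SE 0.36, adjusted p = 0.00262), Psme2 (0.77), Psmb7 (0.77) and Psmb6 (0.65). DESeq2 called Psmb8 alone (log2 1.95, adjusted p = 0.00229), where 411 of 4328 genes were called higher. Without naive 1 or naive 2 edgeR called Psmb8 alone (log2 2.28 and 1.74), without metastasis 2 it called 0 members (Psmb8 log2 1.58, adjusted p = 0.0831), and without metastasis 1 it called 7. In the low-share cells of both clusters Psmb8 had 22 and 19 UMIs with metastases, against 8 and 5, a ratio of 2.11 (1.11 to 4.30). By edgeR it was not called (log2 1.14, adjusted p = 0.654), where 19 of 4149 genes were called higher and 0 lower.

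The endothelial-like cluster 6 showed no call. By edgeR 0 of 8 members passed, with 0 at an unadjusted p under 0.05, where 7.58% of all genes tested were called in either direction. DESeq2 called 0 of 7, where 65 genes were called higher and 110 lower of 1811. Psmb8 had 257 and 290 CPM with metastases, against 318 and 206 CPM in naive brains (log2 0.03, SE 0.28), and the conditions overlapped. Psmb10 (140 and 130 CPM, against 217 and 155 CPM; log2 -0.49, SE 0.31) lay lower in both brains with metastases, and Psmb6 (588 and 565 CPM, against 376 and 474 CPM; log2 0.45, SE 0.23) and Psmb7 (407 and 303 CPM, against 188 and 299 CPM; log2 0.57, SE 0.30) lay higher, where 56.8% of all genes tested did not overlap between conditions. Over all cells of cluster 6 the ratio of the 2 sets was 1.35 in naive 1 and 0.829 in naive 2, against 0.709 and 0.756 with metastases. Among brains with at least 20 cells of a cluster, all cells used, 1.35 was the 1 value above 1 outside the immune clusters. The large-cluster share there was 78.7% and 66.3% with metastases, against 46.0% and 42.3%, and endothelial markers were at 4527 and 3772 CPM, against 10847 and 8289 CPM. In the cells with at most 40% of that share the log2 ratio was 0.54 and 0.22 with metastases, against 0.63 and -0.18 in naive brains. Both brains with metastases were then above 0, and the conditions overlapped. The part of the endothelial markers in the ratio was not tested.

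In the mural-like cluster 11, 0 of 6 members were called by edgeR and 0 had an unadjusted p under 0.05, where 16.1% of genes were called in either direction. DESeq2 called 0 of 6, where 33 genes were called higher and 212 lower of 2620. Psmb8 had 172 and 213 CPM with metastases, against 154 and 229 CPM in naive brains (log2 0.12, SE 0.48). Psmb9 had 6 and 17 UMIs with metastases, against none in the naive brains, whose sums were too shallow for a fold above the floor of 3 counts. In this cluster the sums compared cells that differed in kind, as mural markers were at 3097 and 2497 CPM with metastases, against 18511 and 32949 CPM, and cells had a median of 9974 and 10370 UMIs, against 814 and 871. By edgeR 100 of 2620 genes were called higher and 322 lower. H2-D1 rose (log2 0.86, SE 0.27, adjusted p = 0.0329), as 1 of 7 tested genes of class I peptide loading. Socs3, an inhibitor of cytokine signalling, fell by 2.49 on the log2 scale, as 1 of 2 tested interferon signalling genes. Of 3 tested genes in the list that holds the ubiquitin gene Ubb, 2 were called lower, Ubb at log2 -1.29 and another at -1.37.

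**Figure D5:**
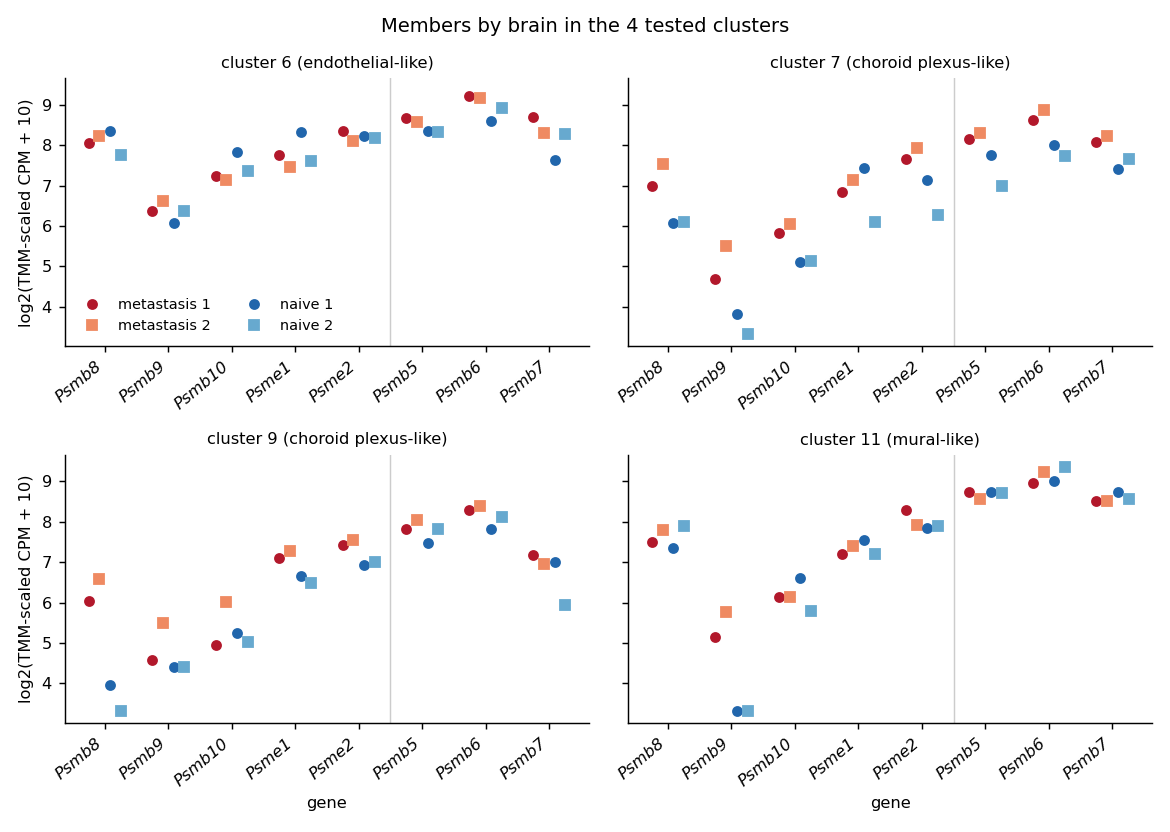
Level of each member in each brain, as log2(TMM-scaled CPM + 10) on the vertical axis, in the 4 tested clusters. Points are brains, with metastasis 1 and 2 left of naive 1 and 2. Psmb8 stands apart between conditions in clusters 7 and 9 and overlaps in clusters 6 and 11.

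With at least 10 cells per brain, clusters 8, 10 and 12 could also be tested. By edgeR 0 of 8, 0 of 7 and 0 of 6 members were called, where 0.682%, 2.44% and 5.86% of genes were called in either direction. At an unadjusted p under 0.05 the counts were 2 in cluster 8 (Psme1 and Psme2), 0 in cluster 10 and 2 in cluster 12 (Psme2 and Psmb6), all higher with metastases. DESeq2 gave 8, 7 and 2 members an adjusted p in clusters 8, 10 and 12 and called none. It called 3 genes higher and 12 lower of 1738 in cluster 8, 6 and 56 of 2666 in cluster 10, and 5 and 26 of 510 in cluster 12. Psme1 in cluster 8 was at log2 1.64 (SE 0.51, adjusted p = 0.186) and Psme2 in cluster 12 at log2 1.12 (SE 0.44, adjusted p = 0.123).

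Whether the effect of metastases differed between clusters was tested directly, with brain, cluster and their interaction with condition in 1 edgeR fit over 6247 genes. The Psmb8 effect was smaller in cluster 6 than in cluster 9 by 4.46 on the log2 scale (-4.46, SE 0.93, adjusted p = 0.000767), where 0.944% of genes were called, and larger in cluster 9 than in cluster 11 by 4.12 (SE 1.11, adjusted p = 0.0149), where 1.81% were. The first was lost without naive 1 (-7.60, adjusted p = 0.0729), and the second without metastasis 2 (3.95, adjusted p = 0.0977), naive 1 (7.68, adjusted p = 0.0967) or naive 2 (3.12, adjusted p = 0.418). Between the choroid plexus-like clusters 7 and 9 the Psmb8 effect was at -3.15 (SE 1.10, adjusted p = 0.0671), where 5.25% of genes were called, and between clusters 6 and 7 at -1.31 (SE 0.46, adjusted p = 0.0906), where 3.55% were. In the 6 pairs of clusters no other member was called, where 1.28% of genes were called between clusters 6 and 11 and 1.46% between clusters 7 and 11.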

How the data were processed

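Values in the deposited RNA table are unnormalised UMI counts, as whole numbers that sum to different totals per cell show. A deposited tag table gives antibody tag counts, and a table of cells from the authors lists cluster number, condition, hashing call and the percent of mitochondrial UMIs. The submitters' processing notes name Cell Ranger 3.0.2, Seurat 3.0.1 and mm10 without their settings. All 12421 deposited cells were used, each with at least 500 UMIs, and no doublet caller was run.

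UMIs were summed per brain and deposited cluster. Clusters with at least 20 cells in all 4 brains were tested with edgeR 4.0.16 (R 4.3.3; filterByExpr, TMM, glmQLFit, glmQLFTest), with DESeq2 1.42.0 as an alternative. The SE is the log2 fold change over the root of the quasi-likelihood F. Fits were also run on simulated counts with 200 changed genes, 1 fixed spread and no mixture of cell types. That run cannot show how the fits behave where cells differ in kind, and it is no support for the calls. A brain outside the tested clusters was described where it held at least 20 cells of a cluster. All members are named in each tested cluster, and of each further list at most 4 genes called higher and 4 called lower, those with the largest fold change. The members and lists were chosen with earlier results of these data known. Intervals and floors cover counting error only.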

Additional observations from a re-analysis of the deposited data

Results flagged for a closer look

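The Psmb8 change with metastases in cluster 9 differed from that in clusters 6 and 11 in the test of the difference itself. Between the endothelial-like cluster 6 and the choroid plexus-like cluster 9 the effect differed by -4.46 on the log2 scale (cluster 6 minus cluster 9; edgeR adjusted p = 0.000767). Psmb8 was higher in 2 of 2 brains with metastases than in both naive brains in cluster 9, and overlapped between conditions in cluster 6. Between cluster 9 and the mural-like cluster 11 it differed by 4.12 (cluster 9 minus cluster 11; edgeR adjusted p = 0.0149). Both values rest on a naive sum of 1 Psmb8 UMI in cluster 9, in 76 naive cells. For Psmb8, cluster 7, also choroid plexus-like, was not called apart from cluster 9, 6 or 11, where 5.25%, 3.55% and 1.46% of genes were. A difference between cell classes is therefore not shown. The share of the 30 large-cluster genes in cluster 11 was 98.5% and 95.9% of its level in the large clusters with metastases, against 70.7% and 54.7% in naive brains. These genes were chosen against cluster 2 alone, so that mural-like cells can hold them too and the share is no measure of large-cluster RNA. The part of this share in the difference was not tested. The values for clusters 6 and 9, and the brains without which each call was lost, stand in the report.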

How the results depend on the processing

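Across the alternatives, 162 of 209 member fold changes in the tested clusters kept their direction and their side of the threshold, and 27 changed direction, none of them called either way. In cluster 7 the count of members called was 3 of 7 tested, where 14.2% of genes were called higher. With every gene that had a UMI it was 7 of 8 (1497 of 14550 genes higher), and by DESeq2 0 of 7 (309 of 4229). It was 0 of 6 with cells thinned to 1000 UMIs (47 of 1768 genes higher). With cells of at most 40% of the large-cluster share it was 0 of 5 (3 of 1865). It also moved without 1 brain. In cluster 9 the count was 1 of 6 tested, where 3.83% of genes were called higher. It was 0 of 1 with thinned cells (10 of 597 genes higher) and 0 of 5 with low-share cells (20 of 2582). Psmb8 was below the filter in both. With clusters 7 and 9 summed the count was 4 of 8 (974 of 7547 genes higher), and it moved without 1 brain. DESeq2 gave no adjusted p for any member in cluster 9. The cause of these shifts was not tested. Members whose effect differed numbered 0 to 1 without 1 brain between clusters 6 and 9 and between clusters 9 and 11.

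The difference of the log2 ratio, metastasis minus naive, was -0.53 in cluster 6, 0.15 in cluster 7, 0.48 in cluster 9 and 0.23 in cluster 11. Thinned cells gave -0.026, 1.00 and 1.48 in clusters 6, 7 and 9, low-share cells 0.16, 0.62 and 0.31 in clusters 6, 7 and 9, catalytic subunits alone 0.56 in cluster 7 and 1.31 in cluster 9, and in cluster 11 the 20S core in the denominator gave -0.14 and the mean of per-gene values 0.50. Without 1 brain the differences were -0.89 to -0.18, -0.15 to 0.44, 0.33 to 0.62 and 0.20 to 0.27 in clusters 6, 7, 9 and 11. Fold changes that turned were Psmb10 (0.16) and Psme1 (0.037) in cluster 6 and Psme1 (0.013) and Psmb5 (-0.42) in cluster 7 with low-share cells; Psmb5 (-0.0028) in cluster 6, Psmb7 (-0.15) in cluster 7 and Psmb6 (-0.46) in cluster 9 with thinned cells; and, with every gene, Psme1 (0.26) in cluster 7 and Psme1 (0.43), Psmb5 (0.47), Psmb6 (0.54) and Psmb7 (0.40) in cluster 11. Without 1 brain the uncalled log2 values ranged in cluster 6 from -0.22 to 0.42 for Psmb8, -0.75 to 0.015 for Psme1 and -0.056 to 0.16 for Psme2. For Psme1 in cluster 7 they ranged from -0.46 to 1.09. In cluster 11 they ranged from -0.064 to 0.36 for Psmb8, -0.22 to 0.35 for Psme1, -0.15 to 0.16 for Psmb5, -0.17 to 0.13 for Psmb6 and -0.20 to 0.19 for Psmb7.

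Cells without any marker of another class left no cluster with 20 cells in every brain, so that alternative gave no test, and cluster 11 could not be tested with thinned or low-share cells. No paired analysis was possible because the hashing numbers do not tie a brain with metastases to a naive brain. In a fit without 1 brain the lone sample is assumed to vary like the other group. The naive sum of 1 Psmb8 UMI in cluster 9 limits its fold, and with 2 brains per condition 1 brain can decide a call.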

Other observations

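Psme3, which encodes the PA28 gamma subunit of a nuclear activator, was lower in cluster 2 than in the large clusters of the brains with metastases. It had 57.6 and 79.5 CPM in the monocyte/macrophage-like cluster 2, where Psme1 and Psme2 were high, and 139 and 120 CPM in cluster 0 and 147 and 137 CPM in cluster 4. Tap1, the divergent neighbour of Psmb9, had 130 CPM in both brains in cluster 2 and 65.4 and 73.8 CPM in cluster 3, against 25.8 and 36.7 CPM in cluster 0. In cluster 5, led by mitochondrial genes, Tap1 reached 89.2 and 119 CPM while Psmb9 was at 21.7 and 37.5 CPM, where Tap1 was above and Psmb9 below its level in cluster 3.

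Irf7 had 684 and 879 CPM in cluster 2 and 134 and 132 CPM in cluster 3, against 14.1 and 25.1 CPM in cluster 0. Psmb11, the thymus-specific catalytic subunit, had at most 2.27 CPM in any cluster and brain with at least 20 cells. In cluster 0 the ratio was 0.484 and 0.512 in the cells of metastasis 1 and metastasis 2, against 0.425 in the 37 cells tagged as naive 1, and Psmb8 was at 156 and 190 CPM, against 131 CPM.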
